A study of Mus musculus with 24 samples.

Results

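The 10 genes described here code for cytosolic aminoacyl-tRNA synthetases: Aars, Cars, Eprs, Gars, Iars, Lars, Mars, Tars, Wars and Yars. They were taken by symbol from a liver RNA-seq count table of 22355 genes, where Mars and Wars are listed as Mars1 and Wars1. All 10 were found, and all 10 were among the 11508 genes that passed a filter on low counts and were tested. The livers came from 24 diet-induced obese (DIO) mice, 8 in each of 3 groups. Mice in the treated groups had received IUB288 for 4 d, a compound given by code name only that activates the glucagon receptor, and gave their livers 4 h or 22 h after its last injection. Control mice had vehicle for 4 d and gave their livers at 22 h, so the 4 h group has no vehicle group of its own time. Diet-induced obesity was shared by all 3 groups. Strain, sex, age and dose were not in the labels. Both comparisons with vehicle use the same 8 vehicle livers.

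An aminoacyl-tRNA synthetase joins an amino acid to the tRNAs that read its codons. In general each amino acid has its own enzyme, while Eprs codes for a bifunctional enzyme of glutamate and proline. The enzymes fall into class I and class II by the fold of their catalytic domain, and in mammals several of them sit with scaffold proteins in a multisynthetase complex while others are free in the cytosol. Many cytosolic synthetase genes are known targets of ATF4, a transcription factor that is translated more when kinases such as GCN2 or PERK phosphorylate eIF2 during amino acid shortage or endoplasmic reticulum stress. Glucagon signals in hepatocytes through cAMP and drives amino acid uptake and breakdown for glucose production.

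The DNA next to the start sites is shown first, since ATF4 and the cAMP-responsive factors act through short motifs there. RefSeq windows on GRCm38.p6, 300 bases long from 250 before to 50 after an annotated start, were at hand for 7 of the 10 genes: Aars, Eprs, Gars, Iars, Mars, Tars and Yars. The core of the C/EBP-ATF response element, to which ATF4 binds with a C/EBP partner, was searched as TGATGNAA on both strands. It was present in 5 of the 7 windows, those of Aars, Gars, Iars, Tars and Yars, against 3.97% of all 32851 windows and 4.51% of the 27025 genes with a window. No window of Eprs or Mars held these letters. For each of the 5 genes 1 match is shown with 11 bases on each side, 5′ to 3′ on the strand of the gene, with the match in capitals. Where the capitals read TTGCATCA or TTTCATCA the element lies on the opposite strand.
Aars, chr8:111033840-111033869, plus strand, match from base 10 after the start: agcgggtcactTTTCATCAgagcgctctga
Gars, chr6:55037960-55037989, plus strand, match from 30 bases before the start: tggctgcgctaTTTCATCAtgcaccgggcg
Iars, chr13:49682126-49682155, plus strand, match from base 8 after the start: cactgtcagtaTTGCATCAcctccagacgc
Tars, chr15:11399655-11399684, minus strand, match from 15 bases before the start: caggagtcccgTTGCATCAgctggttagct
Yars, chr4:129189895-129189924, plus strand, match from base 4 after the start: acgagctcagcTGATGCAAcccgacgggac

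In 4 of these 5 stretches the match reads on the opposite strand to the gene, and in Yars on the same strand. For Aars, Eprs and Yars the RefSeq gene span begins upstream of the start that the window is drawn on, so each of these windows stands for 1 of several possible starts, and the others were not searched. A match is a string of letters and was not tested as a binding site.

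The full cAMP response element TGACGTCA, the site of the cAMP-responsive factor CREB, was in 0 of the 7 windows, against 2.03% of genes. Its partial form TGACG was in 4 of the 7, those of Eprs, Mars, Tars and Yars, against 23.0% of genes, with 3 matches in Eprs. The E-box CACGTG, a site shared by MYC-like and TFEB-like factors, was in 3 of the 7 (Aars, Iars and Tars), against 8.09% of genes. The partial and full cAMP response elements overlap in letters. Eprs was chosen for display after the fold changes were seen. It was close to Aars at 4 h and had no C/EBP-ATF core in its window. Mars, with the smallest call at 4 h (0.18 on the log2 scale), also held the partial element and no core. Whether the partial elements act on any of these genes was not tested. The Eprs matches are given 5′ to 3′ on the plus strand, with the partial element in capitals. These read CGTCA where the element lies on the opposite strand.
Eprs, chr1:185362874-185362903, match from 158 bases before the start: gcgttcgccagaCGTCAgtatccgcgggcc
Eprs, chr1:185362933-185362962, match from 99 bases before the start: ggcgcgcagcgaTGACGcacagagtagcct
Eprs, chr1:185363023-185363052, match from 9 bases before the start: ggcgcatatttaTGACGtgtcgtagcgtgc

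At 4 h after the last IUB288 injection, 9 of the 10 synthetase genes were higher than in vehicle livers, none was lower and Wars was not called (limma-voom, adjusted over all genes, threshold 0.05). Over all genes tested, 21.7% were called higher and 22.5% lower in that comparison. The median log2 fold change of the 10 was 0.38, against -0.07 over all genes. At 22 h, 5 of the 10 were higher (Aars, Eprs, Gars, Iars and Tars), none was lower and 5 were not called, against a background of 17.6% of genes called higher and 19.2% lower. The median was 0.17, against -0.02 over all genes. From 4 h to 22 h, 6 of the 10 fell (Aars, Cars, Eprs, Iars, Lars and Yars), none rose and 4 were not called, where 15% of all genes were called lower and 14.3% higher. The median was -0.27, against -0.02 over all genes. Aars, Eprs, Iars and Lars did not overlap with vehicle at 4 h, where 9.91% of all genes were higher without overlap, and Aars and Eprs did not overlap at 22 h, where 4.2% were.

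Added up, the 10 genes took 802 to 996 CPM in vehicle livers (median 891), 1340.4 to 1736 CPM at 4 h (median 1539) and 1028 to 1260.4 CPM at 22 h (median 1129). CPM here is a count divided by the library total in M counts, after scaling of that total by the trimmed mean of M values (TMM). The sums of the 3 groups were 893 ± 55.1, 1516 ± 129.6 and 1148 ± 94.4 CPM (mean ± SD, n = 8). No treated liver reached down into the vehicle range at either time. Aars and Eprs carried most of the added CPM.

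**Figure D1:**
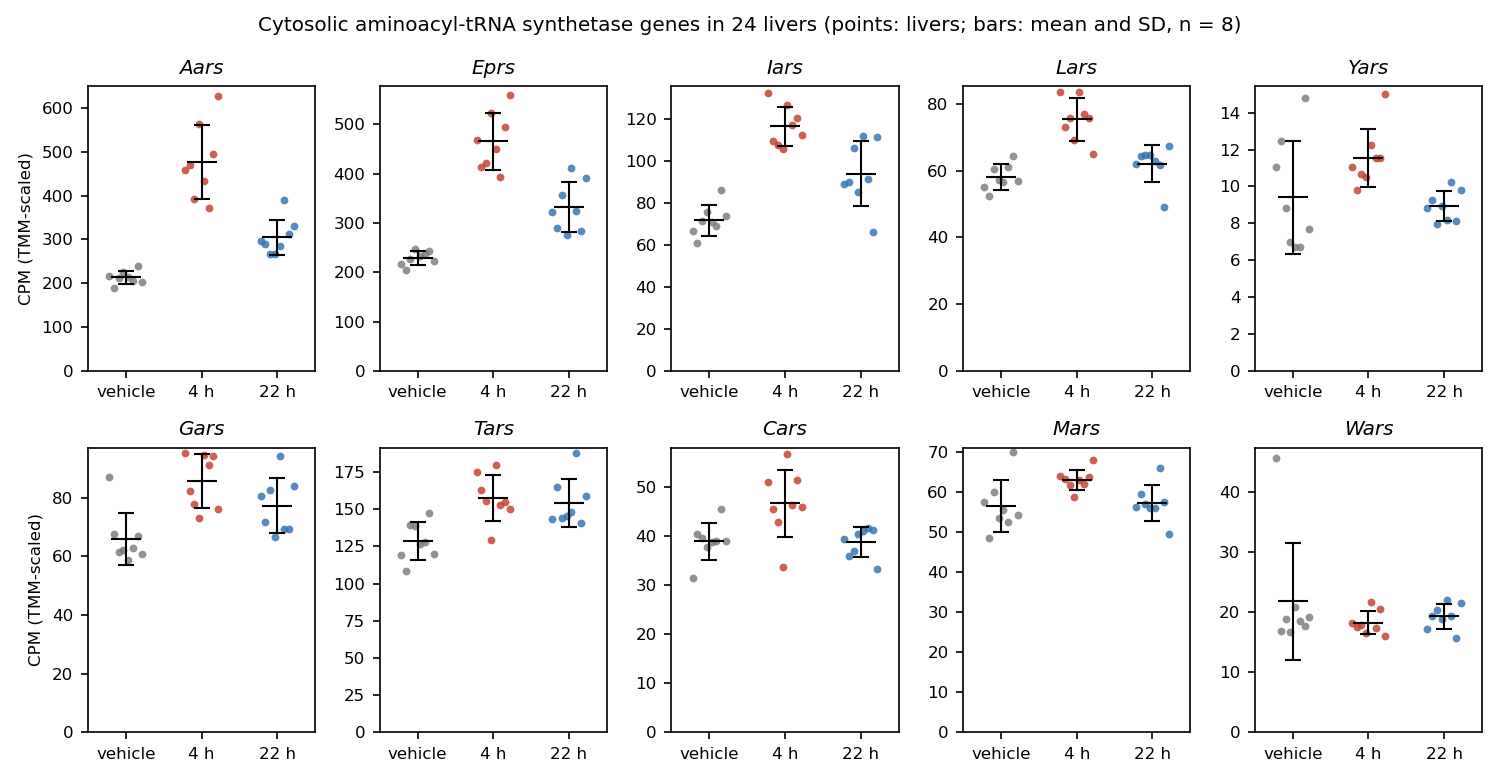
CPM (TMM-scaled, y axis from 0) of each synthetase gene in vehicle livers and at 4 h and 22 h after the last IUB288 injection; points are livers, bars the mean and SD (n = 8). Vehicle and 4 h points do not overlap for Aars, Eprs, Iars and Lars, and 1 vehicle liver stands alone for Wars at 45.7 CPM.

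Levels can be set side by side between genes only per transcript length, for which the principal coding transcript of GENCODE M21 was used. In vehicle livers Eprs was at 46.7 ± 2.80, Aars at 37.1 ± 2.69, Tars at 32.1 ± 3.19 and Gars at 27.7 ± 3.76 CPM per kb (SD, n = 8). Mars followed at 19.2 ± 2.19, Iars at 16.2 ± 1.66, Lars at 14.6 ± 0.958, Cars at 12.1 ± 1.18 and Wars at 12.0 ± 5.35 CPM per kb, and Yars was last at 3.23 ± 1.04. Neighbours in this order overlapped in their vehicle livers, except Eprs above Aars by a narrow margin (lowest 41.83, highest 41.80), Gars above Mars and Wars above Yars. At 4 h Eprs and Aars were at 94.9 ± 11.7 and 82.9 ± 14.8 CPM per kb, while Tars, the third in order, was at 39.3 ± 3.90. Reads of other transcripts of a gene are counted in its CPM, so these levels depend on the transcript chosen.

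Gene positions below are RefSeq gene spans on GRCm38.p6. The members of the multisynthetase complex among the 10 genes are Eprs, Iars, Lars and Mars. All 4 were called higher at 4 h, with a median log2 fold change of 0.55. Of the 6 free synthetase genes, 5 were called higher, with a median of 0.34. Over all genes tested, 21.7% were called higher at 4 h. Eprs (Entrez 107508, chr1:185361417-185428360) codes for the bifunctional enzyme that charges tRNAs with glutamate and with proline, and has a class I and a class II catalytic domain. It was at 205, 231 and 246 CPM in vehicle livers (lowest, median and highest of 8), at 393, 459 and 559.8 CPM at 4 h, and at 276, 323 and 412 CPM at 22 h. Each of the 16 treated livers was above every vehicle liver. Eprs rose by 1.02 ± 0.08 on the log2 scale at 4 h (SE; limma-voom adjusted p = 3.01e-10), or 2.02-fold, and by 0.52 ± 0.08 at 22 h (adjusted p = 2.5e-05). Between the 2 times it fell by 0.49 on the log2 scale (limma-voom adjusted p = 4.45e-05), and 7 of the 8 livers at 22 h were below every liver at 4 h.

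Iars (Entrez 105148, chr13:49682130-49734267) charges tRNAs with isoleucine and Lars (Entrez 107045) with leucine, and both are class I enzymes. Iars was at 60.9, 71.1 and 86.0 CPM in vehicle livers (lowest, median and highest of 8), at 105, 115 and 132 CPM at 4 h, and at 66.01, 90.7 and 112 CPM at 22 h. All livers at 4 h were above all vehicle livers, and 6 of 8 were at 22 h, where the lowest liver was inside the vehicle range. Iars rose by 0.71 ± 0.09 on the log2 scale at 4 h (SE; limma-voom adjusted p = 3.01e-07) and by 0.38 ± 0.09 at 22 h (adjusted p = 0.00133), and fell by 0.33 between the times (adjusted p = 0.00489). Lars was at 52.5, 57.2 and 64.6 CPM in vehicle livers, at 65.03, 75.8 and 83.7 CPM at 4 h, and at 49.1, 63.7 and 67.3 CPM at 22 h. Its 4 h livers were all above the vehicle range, with the lowest just beyond it, and the 22 h livers spanned that range. Lars rose by 0.38 ± 0.06 on the log2 scale at 4 h (limma-voom adjusted p = 1.72e-05) and fell by 0.28 from 4 h to 22 h (adjusted p = 0.000917). At 22 h it was not called against vehicle, at 0.10 (adjusted p = 0.209), but without 22 h replicate 7, the liver at 49.1 CPM, it was called at 0.15 (adjusted p = 0.0359).

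Mars (Entrez 216443, chr10:127296221-127311786) charges tRNAs with methionine, the initiator tRNA included. It was at 48.4, 54.8 and 70.0 CPM in vehicle livers (lowest, median and highest of 8), at 58.8, 63.02 and 67.9 CPM at 4 h, and at 49.4, 56.5 and 65.9 CPM at 22 h. The highest liver of all was a vehicle liver, and the 4 h livers lay in a narrow band inside the vehicle range, above its mean. Mars had the smallest call at 4 h, 0.18 ± 0.06 on the log2 scale (SE; limma-voom adjusted p = 0.0164), and this call was lost when libraries were scaled by their totals alone (0.13, adjusted p = 0.091). It was at 0.04 at 22 h (adjusted p = 0.654) and -0.14 between the times (adjusted p = 0.0731).

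The free class II enzymes of alanine, glycine and threonine were all called higher at both times. Over all genes tested, 21.7% were called higher at 4 h and 17.6% at 22 h. Alanine is an amino acid that muscle exports to the liver for glucose production. Its synthetase gene Aars (Entrez 234734, chr8:111027778-111055569) was at 189.6, 213 and 240.4 CPM in vehicle livers (lowest, median and highest of 8), at 372, 464 and 628 CPM at 4 h, and at 266, 293 and 389 CPM at 22 h. All 16 treated livers were above all vehicle livers, and the 4 h livers spread more widely, with a coefficient of variation of 17.9% against 7.25%. Aars rose 2.21-fold at 4 h, by 1.14 ± 0.09 on the log2 scale (SE; limma-voom adjusted p = 2.05e-10), and 1.42-fold at 22 h, by 0.51 ± 0.09 (adjusted p = 0.000111). At 4 h 429 of the 11508 genes had a larger fitted rise than Aars, and 515 than Eprs. From 4 h to 22 h Aars fell by 0.64 on the log2 scale (limma-voom adjusted p = 4.93e-06).

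Gars (Entrez 353172, chr6:55038001-55079504) charges tRNAs with glycine in the cytosol and, from another start codon, in mitochondria. It was at 58.9, 62.5 and 86.8 CPM in vehicle livers (lowest, median and highest of 8), at 73.0, 86.8 and 95.2 CPM at 4 h, and at 66.6, 76.1 and 94.0 CPM at 22 h. The groups overlapped only through vehicle replicate 1 at 4 h: the other 7 vehicle livers reached 67.7 CPM. Gars rose by 0.38 ± 0.08 on the log2 scale at 4 h (SE; limma-voom adjusted p = 0.000696) and by 0.23 ± 0.08 at 22 h (adjusted p = 0.0343). Without vehicle replicate 1 the values were 0.44 (limma-voom adjusted p = 3.03e-05) and 0.29 (adjusted p = 0.00361). The 22 h call was lost without any 1 of 9 other livers, and then lay between 0.19 and 0.22 on the log2 scale.

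Tars (Entrez 110960, chr15:11383663-11399658) charges tRNAs with threonine. It was at 108, 127 and 147 CPM in vehicle livers (lowest, median and highest of 8), at 129, 155 and 179.7 CPM at 4 h, and at 141, 147 and 187 CPM at 22 h. At 4 h, 7 of 8 livers were above every vehicle liver, and at 22 h 4 of 8. Tars rose by 0.29 ± 0.07 on the log2 scale at 4 h (SE; limma-voom adjusted p = 0.00164) and by 0.26 ± 0.07 at 22 h (adjusted p = 0.00571). The difference between the times was -0.03, with a 95% interval from -0.18 to 0.12 (limma-voom adjusted p = 0.787).

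Cars, Yars and Wars are free class I enzymes for cysteine, tyrosine and tryptophan. Cars (Entrez 27267, chr7:143557230-143600090) was at 31.5, 39.0 and 45.4 CPM in vehicle livers (lowest, median and highest of 8), at 33.6, 46.1 and 56.7 CPM at 4 h, and at 33.2, 39.9 and 41.7 CPM at 22 h. At 4 h, 6 of 8 livers were above every vehicle liver, while at 22 h all 8 were within the vehicle range. The low end of that range was vehicle replicate 1, and the other 7 vehicle livers began at 37.7 CPM. Replicates 2, 3 and 8 at 22 h lay below 37.7 CPM. Cars rose by 0.27 ± 0.08 on the log2 scale at 4 h (SE; limma-voom adjusted p = 0.00979) and fell by 0.26 to 22 h (adjusted p = 0.0178), where it was at 0.01 against vehicle (95% interval -0.16 to 0.18, adjusted p = 0.938). Without vehicle replicate 1 Cars was at 0.22 at 4 h (limma-voom adjusted p = 0.0249) and -0.04 at 22 h (adjusted p = 0.753). Scaled by library totals alone, neither the rise at 4 h nor the fall to 22 h was called (0.21, adjusted p = 0.0688, and -0.22, adjusted p = 0.0786).

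Yars (Entrez 107271, chr4:129189734-129219240) had the fewest counts of the 10. It was at 6.71, 8.25 and 14.8 CPM in vehicle livers (lowest, median and highest of 8), at 9.82, 11.3 and 15.01 CPM at 4 h, and at 7.94, 8.88 and 10.2 CPM at 22 h. All 4 h livers were above the vehicle mean but only 1 was above every vehicle liver, since 3 vehicle livers stood above 11 CPM. Yars rose by 0.38 ± 0.13 on the log2 scale at 4 h (SE; limma-voom adjusted p = 0.0201), a call lost without vehicle replicate 5 (0.31, adjusted p = 0.0579) or 6 (0.32, adjusted p = 0.0548). It fell by 0.37 from 4 h to 22 h (limma-voom adjusted p = 0.0372), and 7 of 8 livers at 22 h were below every liver at 4 h.

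Wars was the exception. Its enzyme charges tRNAs with tryptophan, and the gene is known for its induction by interferon gamma. Wars (Entrez 22375, chr12:108860030-108894175) was at 16.7, 18.7 and 45.7 CPM in vehicle livers (lowest, median and highest of 8), at 16.04, 17.8 and 21.8 CPM at 4 h, and at 15.7, 19.4 and 22.1 CPM at 22 h. The 3 groups covered the same range apart from vehicle replicate 1. Wars was not called at 4 h (-0.23 ± 0.16 on the log2 scale, SE; limma-voom adjusted p = 0.248) or at 22 h (-0.14, adjusted p = 0.493). Without vehicle replicate 1 the values were -0.02 ± 0.08 at 4 h (limma-voom adjusted p = 0.842) and 0.06 ± 0.08 at 22 h (adjusted p = 0.577).

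**Figure D2:**
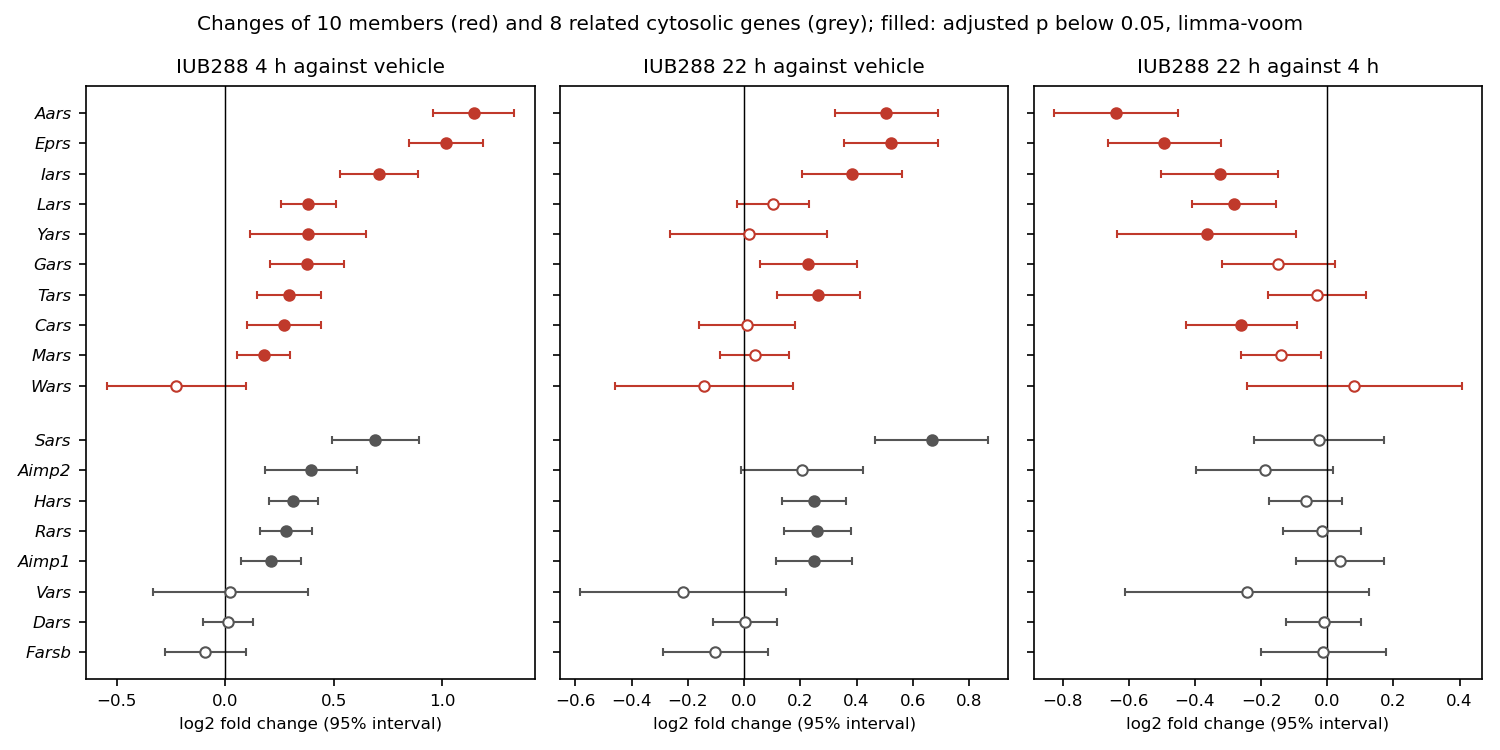
Log2 fold changes (x axis) with 95% intervals for the 10 synthetase genes (red) and 8 related cytosolic genes (grey) in the 3 comparisons; filled points have a limma-voom adjusted p below 0.05. Aars and Eprs stand at 1.14 and 1.02 at 4 h, and Sars and Tars keep nearly the same position at 4 h and 22 h.

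Vehicle replicate 1 differed from the other livers in its markers. Ucp1, a brown fat gene for heat production, was at 1388 CPM there, while the next library had 0.576 CPM. The 8 markers of brown and white adipocytes, all in the table and none at 0 in all livers, added up to 4461 CPM in it, against 39.6 to 69.3 CPM in the other vehicle livers, 17.5 to 42.2 CPM at 4 h and 14.5 to 32.2 CPM at 22 h. It was also the highest vehicle liver for T, NK and B cell markers (52.8 CPM, next 18.3), neutrophil markers (57.5 CPM, next 9.10) and stellate cell markers (1365 CPM, next 1094). Without it 9, 5 and 6 synthetase genes were called in the 3 comparisons, as with it. Wars and Gars were the synthetase genes for which it was the highest vehicle liver, and Cars the one for which it was the lowest. The values of these genes without it are given above.

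Hepatocyte markers were abundant in every liver. The 9 of 10 such markers in the table added up to 73193 to 115764 CPM in vehicle livers, 71437 to 96420.4 CPM at 4 h and 61355 to 88032 CPM at 22 h. Of these 9, 3 were called higher and 5 lower at 4 h, and 4 higher and 4 lower at 22 h, with median log2 fold changes of -0.35 and -0.03. Of 8 endothelial markers 2 were called lower at 4 h and 8 at 22 h, of 8 stellate cell markers 4 and 7, and of 9 Kupffer cell markers 2 and 5, with none higher, where 22.5% and 19.2% of all genes were called lower. At 4 h the endothelial and Kupffer cell counts were near that background. The endothelial sum was 314 to 600.3 CPM in vehicle livers, 356 to 418 CPM at 4 h and 157 to 395 CPM at 22 h. In whole liver, fewer cells of a type and less RNA per cell cannot be told apart. The part of these shifts in the synthetase changes was not tested.

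The other cytosolic synthetases and the scaffold proteins of the complex gave 8 tested genes of 13 listed. The rest were not matched by symbol in the count table, and the filter on low counts removed none. Sars (serine), Hars (histidine), Rars (arginine), Aimp1 and Aimp2 were higher at 4 h, and Dars (aspartate), Vars (valine) and Farsb (a phenylalanine enzyme subunit) were not called. The median was 0.24 at 4 h and 0.23 at 22 h, and at 22 h 4 of the 8 were higher. Among all genes tested, 21.7% were called higher at 4 h and 17.6% at 22 h. Sars was at 62.4, 71.4 and 83.1 CPM in vehicle livers (lowest, median and highest of 8), at 92.9, 119 and 136 CPM at 4 h, and at 93.9, 109 and 169 CPM at 22 h. All treated livers were above the vehicle range. Sars rose by 0.69 ± 0.10 on the log2 scale at 4 h (SE; limma-voom adjusted p = 2.35e-06) and by 0.67 ± 0.10 at 22 h (adjusted p = 9.95e-06), and the difference between the times was -0.02, with a 95% interval from -0.22 to 0.17.

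Hars and Rars were smaller in their changes but equally separate at 4 h. Hars went from 33.5 to 38.5 CPM over the vehicle livers to 40.4 to 49.3 CPM at 4 h, and rose by 0.31 (limma-voom adjusted p = 4.6e-05) and by 0.25 at 22 h (adjusted p = 0.00107). Rars went from 48.7 to 58.2 CPM to 59.8 to 70.6 CPM, and rose by 0.28 at 4 h (limma-voom adjusted p = 0.000373) and 0.26 at 22 h (adjusted p = 0.00113). Neither overlapped with vehicle at 4 h.

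Among the scaffold genes, Aimp1 rose by 0.21 at 4 h and 0.25 at 22 h on the log2 scale (limma-voom adjusted p = 0.0127 and 0.0049), and Aimp2 by 0.40 at 4 h (adjusted p = 0.00304), with 0.21 at 22 h (adjusted p = 0.129). Dars was at 0.01 and 0.00 on the log2 scale, with a 95% interval from -0.10 to 0.13 at 4 h. Vars was at 0.02 and -0.22 on the log2 scale and Farsb at -0.09 and -0.10, all not called. From 4 h to 22 h limma-voom called 0 of the 8, and 0 had an unadjusted p under 0.05. In that comparison 15% of all genes were called lower and 14.3% higher. Of the 8, the 5 with a promoter window (Sars, Dars, Farsb, Aimp1 and Aimp2) had no C/EBP-ATF core in it. Of all genes with a window 4.51% held it, and a list this short cannot show a smaller share.

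The mitochondrial synthetases, coded by separate genes, gave 8 tested genes of 17 listed. The rest were not matched by symbol in the count table, and the filter on low counts removed none. Of the 8, none was called higher and 2 were called lower at 4 h. Over all genes tested, 21.7% were called higher and 22.5% lower at 4 h, so the lower calls were near that share. At 22 h 17.6% of all genes were called higher and 19.2% lower. None of the 8 mitochondrial genes was called at 22 h, and 0 of them had an unadjusted p under 0.05. Their median log2 fold changes were 0.01 and 0.02, and 0.12 and 0.08 without vehicle replicate 1. Pars2, for proline, was at 2.38 to 4.43 CPM over the vehicle livers and 1.44 to 2.89 CPM at 4 h, and fell by 0.61 (limma-voom adjusted p = 0.00396). Rars2, for arginine, fell by 0.24 (limma-voom adjusted p = 0.00841). Both were higher at 22 h than at 4 h, by 0.68 and 0.22 (limma-voom adjusted p = 0.00216 and 0.0195). Iars2 and Nars2 were at 0.14 and 0.13 at 4 h and not called (limma-voom adjusted p = 0.0574 and 0.0517), and 1 of the 8 genes was called higher without vehicle replicate 1. None of the 6 with a promoter window held the C/EBP-ATF core. Of all genes with a window 4.51% held it, and a list this short cannot show a smaller share.

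**Figure D3:**
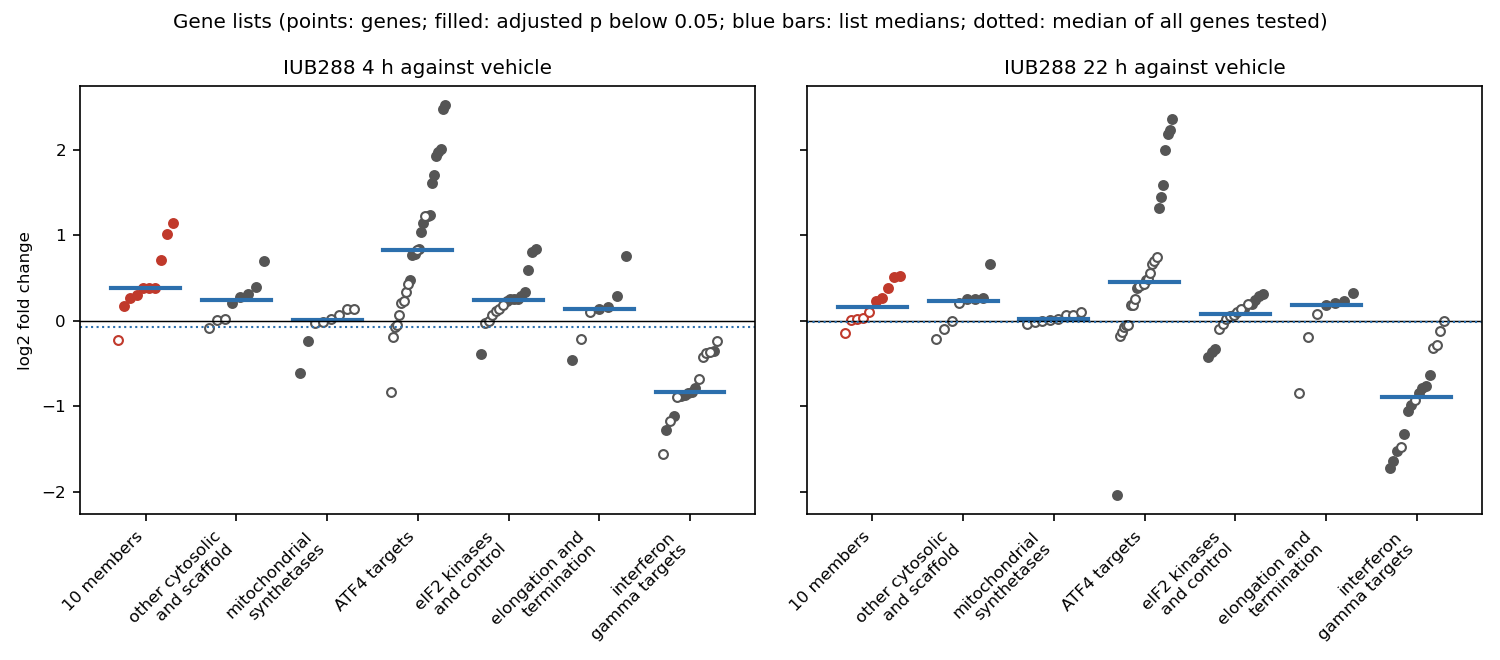
Log2 fold changes (y axis) of each tested gene at 4 h and 22 h against vehicle for the 10 synthetase genes (red) and 6 related lists; filled points have a limma-voom adjusted p below 0.05, blue bars are list medians and the dotted line the median of all genes. The medians at 4 h are 0.38 for the 10 genes, 0.01 for mitochondrial synthetases, 0.83 for ATF4 targets and -0.83 for interferon gamma targets.

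In the list of ATF4 targets and the amino acid response, 15 of 26 tested genes were higher at 4 h and none lower, and 10 were higher and 1 lower at 22 h. The median was 0.83 at 4 h and 0.45 at 22 h. Of all genes tested, 21.7% were called higher and 22.5% lower at 4 h, and 17.6% and 19.2% at 22 h. Without vehicle replicate 1, 16 and 13 genes of the list were higher. Atf4 itself was at 58.6, 69.4 and 85.8 CPM in vehicle livers (lowest, median and highest of 8), at 109, 128 and 145 CPM at 4 h, and at 84.1, 97.7 and 123 CPM at 22 h. The 4 h livers were all above the vehicle range, and the 22 h livers met its upper end. Atf4 rose by 0.84 ± 0.09 on the log2 scale at 4 h (SE; limma-voom adjusted p = 3.49e-08) and 0.47 ± 0.09 at 22 h (adjusted p = 0.000271), and fell by 0.37 between the times (adjusted p = 0.00225). ATF4 is regulated largely at translation, which mRNA counts do not show. Of 23 genes of this list with a promoter window, 6 held the C/EBP-ATF core: Asns, Atf3, Pycr1, Slc7a11, Trib3 and Vldlr. Of all genes with a window 4.51% held it. At 4 h Asns and Atf3 were called higher, and Pycr1, Slc7a11, Trib3 and Vldlr were not called. Trib3 was just short of the threshold there, at 1.23 on the log2 scale (limma-voom adjusted p = 0.0501). Pycr1 and Slc7a11 averaged only 1.15 and 1.62 CPM at 4 h. At 22 h Asns and Trib3 were called higher, and Atf3, Pycr1, Slc7a11 and Vldlr were not called. In the lists below, the core was in 1 of 13 eIF2 genes with a window, 1 of 6 elongation genes and 0 of 11 interferon gamma targets. In lists this short, 0 or 1 match is near the 4.51% of all genes with a window.

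The named genes of that list took different courses between 4 h and 22 h. Slc3a2, the heavy chain of amino acid exchangers, rose by 1.71 at 4 h on the log2 scale and was at 0.42 at 22 h (limma-voom adjusted p = 6.84e-12 and 0.00578), and it fell by 1.29 between the times (adjusted p = 1.14e-09). Atf5, a related factor, went the other way, with 1.23 at 4 h and 1.99 at 22 h (limma-voom adjusted p = 1.42e-09 and 4.12e-12). Cth, which makes cysteine in transsulfuration, rose by 2.47 at 4 h and 2.36 at 22 h (limma-voom adjusted p = 4.37e-10; 3.29e-09), and the stress hormone gene Gdf15 by 1.98 and 1.45 (adjusted p = 1.56e-08 and 9.48e-06). Aars, Eprs and Iars, like Atf4, Slc3a2 and Gdf15, were called higher at both times and lower at 22 h than at 4 h. Tars, Sars and Cth were not called between the times. Outside this list, Etf1 and Eif2ak3, given below, took the course of Aars too, so it was not particular to this list. The other named genes of their lists did not take it. The part of ATF4 in these courses was not tested.

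Of 16 genes of eIF2 kinases and eIF2 control, 9 were higher and 1 lower at 4 h, and 5 higher and 3 lower at 22 h. Over all genes tested, 21.7% were called higher and 22.5% lower at 4 h, and 17.6% and 19.2% at 22 h. The lower calls at 22 h were near that share. Eif2ak3, which codes for PERK, rose by 0.80 on the log2 scale at 4 h and 0.32 at 22 h (limma-voom adjusted p = 2.02e-06 and 0.0306). Impact, whose product holds back GCN2, rose by 0.83 at 4 h (limma-voom adjusted p = 2.23e-10) and fell by 0.42 below vehicle at 22 h (adjusted p = 5.26e-05). Ppp1r15b, a subunit of the eIF2 phosphatase, rose by 0.59 at 4 h (limma-voom adjusted p = 1.37e-10) and was at 0.06 at 22 h (adjusted p = 0.316). Eif2s1, the eIF2 subunit that is phosphorylated, rose by 0.33 at 4 h (limma-voom adjusted p = 9.25e-06).

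Downstream of charging, 4 of 7 translation elongation and termination genes were higher and 1 lower at 4 h, and 4 were higher at 22 h. The shares over all genes were 21.7% higher and 22.5% lower at 4 h, and 17.6% and 19.2% at 22 h. The release factor genes Etf1 and Gspt1 rose by 0.76 and 0.29 on the log2 scale at 4 h (limma-voom adjusted p = 2.22e-12 and 9.69e-05) and by 0.32 and 0.18 at 22 h (adjusted p = 8.41e-06 and 0.00911). The elongation factor gene Eef2 rose at the 2 times by 0.16 and 0.23 on the log2 scale (limma-voom adjusted p = 0.0132 and 0.00116). Eef2k, whose kinase blocks that factor, fell by 0.46 at 4 h (limma-voom adjusted p = 0.000721) and was at 0.08 at 22 h (adjusted p = 0.541).

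Interferon gamma targets, listed because Wars is one, were called lower for 8 of 16 genes at 4 h and 10 of 16 at 22 h, and none was higher. Without vehicle replicate 1 these were 7 and 9. With all livers, 22.5% of all genes were called lower at 4 h and 19.2% at 22 h. Nlrc5, an activator of MHC class I genes, fell by 0.78 on the log2 scale at 4 h (limma-voom adjusted p = 0.000135) and Gbp7, an interferon-induced GTPase, by 0.88 (adjusted p = 0.000191). Irf1 fell by 0.83 at 4 h (limma-voom adjusted p = 0.000977) and was at 0.00 at 22 h. Wars itself was not called in either comparison.

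Within groups the 10 genes varied together only loosely. Over 45 pairs of genes, Pearson's r of log2 CPM after removal of group means, over 24 libraries, had a median of 0.16 and was above 0 for 37 pairs. It was highest for Iars and Lars, at 0.78, and lowest for Aars and Lars, at -0.30. Each gene was also set against the mean profile of the other synthetase genes, itself left out. There r over the 24 libraries was 0.90 for Iars, 0.86 for Eprs, 0.82 for Aars and Lars, and -0.16 for Wars. These values share the library scaling and, over all 24 libraries, the differences between groups.

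The mean profile of all 10 synthetase genes was then compared with 6499 other genes with at least 5 CPM on average. Hspa4, Abcf2, Tsr1 and Etf1 were among the 5 with the highest r, from 0.93 for Hspa4 to 0.92 for Etf1 over 24 libraries. After removal of group means r was 0.66, 0.59, 0.68 and 0.44 for these 4. Hspa4 codes for an Hsp70 family chaperone, Abcf2 for an ATP-binding cassette protein without a membrane domain, Tsr1 for a ribosome assembly factor and Etf1 for the release factor above. The genes were ranked by this likeness, so these values are a description.

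The sample descriptions number the mice so that replicates 1 to 4 of each group are mice 1 to 12 and replicates 5 to 8 are mice 13 to 24. In replicates 1 to 4 alone 4 synthetase genes were called at 4 h (Aars, Eprs, Iars and Lars), 3 at 22 h and 2 between the times, and in replicates 5 to 8 alone 8, 4 and 4. The log2 fold change at 4 h was 1.13 and 1.14 for Aars, 1.01 and 1.00 for Eprs and 0.71 and 0.68 for Iars in the lower and the higher numbers. It was 0.08 and 0.68 for Yars and 0.23 and 0.51 for Gars, and this difference between the sets of mice was not tested. Vehicle replicate 1, at 86.8 CPM the highest vehicle liver for Gars, is among the lower numbers. The lower numbers were not fitted without it. With a term for the set of mice in the model 9, 5 and 6 genes were called.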

How the data were processed

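Per the labels, frozen liver was lysed in Qiazol, RNA was purified with a miRNeasy Mini Kit, and a KAPA mRNA HyperPrep kit gave the libraries. Per the submitters' processing notes, the authors used cutadapt, GSNAP and GRCm38. Versions, counting tool, annotation and strand setting are not given in the sources used here. The deposited values are whole-number counts per gene, with library totals from 14.0 to 44.1 M (median 32.1). Without the strand setting, reads of overlapping genes on the other strand cannot be told apart. No 2 libraries were copies (chi-square per degree of freedom 19.3 to 310.3 over 84 pairs within groups). Columns were matched to mice by the names in the sample descriptions.

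The members and the lists were chosen with earlier results of these data known. A quasi-likelihood count test (edgeR) had been chosen but was not run, since the quoted layout of the table was not taken as counts by a unit check, and DESeq2 was not run. Limma-voom (limma 3.58.1, R 4.3.3) took its place: genes with a minimum count of 10 in 8 libraries and a total of 15 (11508 genes, 99.92% of counts), TMM scaling (trims 30% and 5%), 1 model with 3 group means over 24 libraries (21 residual degrees of freedom), and Benjamini-Hochberg adjustment over all genes, threshold 0.05. Tested on simulated counts, the code recovered most of the largest known changes and fewer small ones. It missed most large changes in genes of high variance or low counts, so a gene of that kind that was not called may still have changed. The pass criterion, set after a first simulated run, left such genes out. Fold changes are from the model, and CPM and its SD from the scaled counts. Named genes are the 10 members, all tested genes of the other cytosolic list, from each further list the 4 genes of at least 1 CPM with the smallest p, Atf4, and the 5 most like the mean member profile; a few items that these rules select are not reported here. Matching replicate numbers were not used as pairs in the main model, and sensitivity values for them are given below. Promoter windows came from RefSeq, and transcript lengths from GENCODE M21. Python 3.11.15 was used for tables.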

Additional observations from a re-analysis of the deposited data

Results flagged for a closer look

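In 4 of 30 groups of 8 livers 1 liver stood apart by Dixon's gap to range ratio (critical value 0.526), where chance gives about 1 in 20. Vehicle replicate 1 was high for Wars at 45.7 CPM (ratio 0.856) and for Gars at 86.8 CPM (0.683). It is the liver with Ucp1 at 1388 CPM and with adipocyte, lymphocyte and neutrophil markers above those of the other vehicle livers. Lars was low in 22 h replicate 7 at 49.1 CPM (0.702), and Yars was high in 4 h replicate 8 at 15.01 CPM (0.528).

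The change against vehicle differed between 22 h and 4 h for 6 genes, by the test of 22 h against 4 h (limma-voom, adjusted over all genes). The difference was -0.64 on the log2 scale for Aars, -0.49 for Eprs, -0.37 for Yars, -0.33 for Iars, -0.28 for Lars and -0.26 for Cars. All 8 livers at 22 h were below the 4 h mean for each of these 6.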

How the results depend on the processing

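Over 35 alternatives the number of synthetase genes called ran from 4 to 9 at 4 h, from 3 to 6 at 22 h and from 2 to 7 between the times. It moved by over 1.5 times in replicates 1 to 4 alone, with 4, 3 and 2 calls. Replicates 5 to 8 alone, with as many livers, gave 8, 4 and 4 calls. The reason for this difference was not tested. Leaving out 1 liver gave 8 to 9, 4 to 6 and 5 to 7 calls. Scaling by library totals gave 7, 4 and 4, and no filter on low counts 9, 5 and 4. Scaling by totals shifted the median of all genes by -0.05 on the log2 scale at 4 h. No call changed sign in any alternative. Aars and Eprs were called in all 3 comparisons under every alternative, Iars and Lars were called at 4 h under every alternative, and Wars was called in none. The Yars fall from 4 h to 22 h was lost in 13 alternatives, among them each of 9 single livers left out, and Mars was called lower there in 3.

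The fit with the replicate block gave 9, 5 and 6 calls, the same as without it. Correlations of same-numbered livers ran from -0.219 to 0.134, with at most 1 of 8 pairs over 0.1 in a comparison. The numbers thus carried no strong shared effect on expression. Whether same-numbered mice were kept or handled together cannot be told from these values. At most 3 of 8 livers correlated best with their own number. EdgeR and DESeq2, listed as alternatives, were not run. Limma-trend and quality weights were added after seeing the data, as were list counts without vehicle replicate 1. Yars had the lowest CPM of the 10, and which gene depth limits most was not tested.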

Other observations

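Of the amino acid carriers in the ATF4 list, Slc7a1 and Slc7a5, chosen here after their values were seen, rose at 4 h and fell from 4 h to 22 h, while Slc6a9 and Slc7a11 were not called in any comparison. Slc7a1, a carrier of cationic amino acids, was at 3.76 CPM on average in vehicle livers, 7.80 at 4 h and 3.45 at 22 h, and it rose by 1.03 on the log2 scale at 4 h (limma-voom adjusted p = 0.0032) and fell by 1.21 from 4 h to 22 h (adjusted p = 0.00136). Slc7a5, the light chain partner of Slc3a2, was at 1.42, 2.77 and 1.69 CPM, with a log2 fold change of 1.15 at 4 h (limma-voom adjusted p = 0.00192) and -0.73 from 4 h to 22 h (adjusted p = 0.0404). Trib3, a target that feeds back on ATF4, was at 4.13, 10.6 and 23.5 CPM, with a log2 fold change of 2.23 at 22 h (limma-voom adjusted p = 0.000607) and 1.23 at 4 h (adjusted p = 0.0501).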
